A study of Mus musculus with 9 samples.

Results

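miR-132 and miR-212 are neighbouring microRNAs (miRNAs) cut from a single primary transcript, and each hairpin gives a 5p and a 3p mature strand, so the cluster has 4 mature members, listed in the files as mmu-miR-132-3p, mmu-miR-132-5p, mmu-miR-212-3p and mmu-miR-212-5p and written below without the mouse prefix. They were selected by exact name from the small RNA counts of embryonic mouse kidneys, and all 4 were found in each of the 9 libraries, among 1336 to 1401 known miRNA names per library. The names were proposed with the read counts of the 3 groups already in view, so the values below are a description, and no p-value is given for any of the 4. All 4 passed the filter on low counts, which kept 955 miRNAs.

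The 9 libraries came from whole kidneys at embryonic day 16.5. There were 3 libraries labelled DROSHA knockout, 3 carrying a DROSHA-E1147K transgene and 3 wild-type controls. In the nucleus, the RNase III enzyme DROSHA cuts hairpin precursors out of primary miRNA transcripts, and the E1147K change lies in its catalytic part. The labels name neither the promoter or Cre driver nor the cells in which Drosha was changed, nor the number of animals behind a group, so the errors given here may reflect technical spread alone. A whole kidney still holds cells of every lineage, and fewer cells of a type cannot be told apart from fewer reads per cell.

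The primary transcript of miR-212 and miR-132 is best known from neurons, where the transcription factor CREB switches it on after synaptic activity and growth factor signals. The 3p strands carry the main known functions: in neurons they repress Arhgap32, a brake on dendrite growth. In endothelium, miR-132-3p is known to repress Rasa1, which restrains Ras signalling and vessel sprouting. The 5p strands are less studied.

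The 4 mature sequences are shown because they group the cluster by target recognition. The seed, bases 2 to 8, is in capitals, and sequences are those of RefSeq on GRCm38.p6.
miR-132-3p: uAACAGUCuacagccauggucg
miR-212-3p: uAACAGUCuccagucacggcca
miR-132-5p: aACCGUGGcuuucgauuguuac
miR-212-5p: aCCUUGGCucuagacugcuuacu

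Both 3p strands have the seed AACAGUC, and among 1679 mature mouse names in the RefSeq table they were the only 2 with it. They are identical at 17 of 22 positions, and the 5 differences all lie after the seed. Counted from 1 at the 5′ end, with the miR-132-3p base first, these are A10C, C14U, U17C, U20C and G22A. The seeds of miR-132-5p and miR-212-5p were each unique in the table.

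The hairpins lie on the plus strand of chromosome 11 (GRCm38.p6), Mir212 at chr11:75173388-75173478 and Mir132 at chr11:75173682-75173747, with 203 bases between them. GENCODE vM21 gives both loci the same coordinates and places them in intron 1 of 1700016P03Rik, a non-coding transcript annotated as a host of small RNAs. The hairpins are printed to show where the strands sit, with the mature strands in capitals, the 5p strand first.
Mir212: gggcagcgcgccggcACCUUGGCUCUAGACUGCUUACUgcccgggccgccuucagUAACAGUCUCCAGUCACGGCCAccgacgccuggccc
Mir132: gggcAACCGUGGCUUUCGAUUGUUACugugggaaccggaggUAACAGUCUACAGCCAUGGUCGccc

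**Figure D1:**
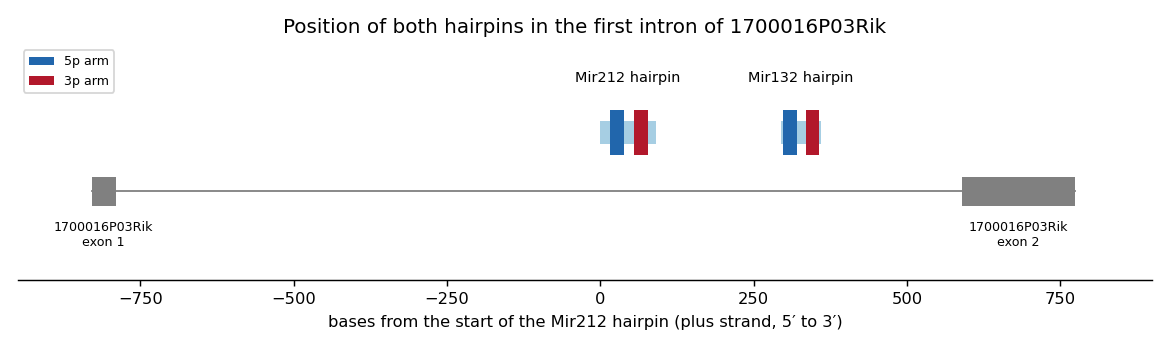
Position of the Mir212 and Mir132 hairpins (light blue) and of their 5p (blue) and 3p (red) strands, in bases from the start of Mir212 on the plus strand, above exons 1 and 2 (grey) of 1700016P03Rik. Both hairpins lie between these exons, 203 bases apart.

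Known miRNAs took 24350500 to 34896599 reads per library. Levels are given as counts per 1000000 miRNA reads (CPM) after TMM scaling, a correction for differences in library composition, and fold changes as log2 values of the edgeR fit over all 9 libraries. The scaling factors matter for small differences, and they differed by group. They were 0.912, 0.882 and 0.926 in controls 1 to 3, 0.911, 1.131 and 1.125 in transgene libraries and 1.114, 1.009 and 1.030 in knockouts. All DROSHA libraries except transgene 1 had a higher factor than every control, so scaling raised the controls relative to them. Each member's fold against control was smaller in size with scaling to total miRNA counts.

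miR-212-3p was the most abundant member in every library. It was counted 5060, 3801 and 2621 times in knockouts 1 to 3, 3502, 3483 and 3785 times in the transgene libraries and 5677, 3907 and 4796 times in controls. It supplied 61.0% to 76.7% of the cluster's reads in the knockouts, 68.0% to 69.7% in the transgene libraries and 61.3% to 68.9% in controls. By mean CPM it ranked 236 of 955 in knockout, 239 in transgene and 213 in control kidneys, so the cluster's leading strand belonged to the upper part of the miRNAs tested, though far from the most abundant. miR-212-5p was the least abundant member in every library, from 58 reads in knockout 3 to 672 in control 1.

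miR-132-3p and miR-132-5p lay between these and close to each other. Mean levels of miR-132-3p and miR-132-5p were 23.0 ± 4.76 and 29.4 ± 2.84 CPM in knockouts, 19.7 ± 1.41 and 24.8 ± 5.92 CPM in transgene libraries, and 46.2 ± 16.5 and 37.7 ± 8.24 CPM in controls (SD, n = 3 each). The order of the miR-132 strands therefore differed by group, with the 5p strand higher on average in both DROSHA groups and the 3p strand higher in controls, but in controls the difference between their means was smaller than the SD of miR-132-3p.

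miR-132-3p, the strand with most of the known miR-132 targets, was lower with either DROSHA change. It stood at 21.3, 19.2 and 28.3 CPM in knockouts 1 to 3, at 18.1, 20.6 and 20.5 CPM in transgene libraries 1 to 3, and at 47.6, 29.0 and 62.0 CPM in controls 1 to 3. All 6 DROSHA libraries lay below all 3 controls on this scale, which held for 6.6% of the 955 miRNAs, but knockout 3 and control 2 were nearly level. The log2 fold change was -1.01 (SE 0.31) for knockout against control and -1.23 (SE 0.32) for transgene against control. Both comparisons use the same 3 controls. As reads per 1000000 of all counted reads (RPM), with no TMM scaling, the knockouts covered 14.9 to 22.5 RPM and overlapped with controls at 20.7 to 46.9 RPM, while the transgene libraries, at 12.9 to 18.3 RPM, did not. The share of the 955 miRNAs that separate in RPM was not counted.

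miR-132-5p, cut from the same hairpin, differed in the same direction but less. It stood at 26.3, 31.8 and 30.2 CPM in knockouts, 30.6, 18.8 and 24.9 CPM in transgene libraries and 43.9, 28.3 and 40.8 CPM in controls. Both DROSHA groups overlapped with controls through control 2, the lowest control for both miR-132 strands. The log2 fold change was -0.36 (SE 0.27) for knockout and -0.60 (SE 0.28) for transgene, each against control. The knockout fold was -0.56 without control 2 and -0.15 with scaling to total miRNA counts, where the median of all miRNAs was 0.19. The transgene fold was -0.37 without transgene 2.

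miR-212-3p, which shares its seed with miR-132-3p, stood at 171, 155 and 94.9 CPM in knockouts, 127, 107 and 130.2 CPM in transgene libraries and 178, 163 and 176 CPM in controls. The transgene libraries lay below all controls on the TMM scale, which held for 12% of the 955 miRNAs, whereas knockout 1 lay within the range of the controls. The log2 fold change was -0.51 (SE 0.26) for transgene and -0.30 (SE 0.26) for knockout, each against control. The knockout value rested on knockout 3: without it the log2 fold change was 0.0089, and with scaling to total miRNA counts it was -0.08. The transgene value was -0.29 with scaling to total miRNA counts, a scale on which the transgene libraries (116 to 147 CPM) and controls (144 to 163 CPM) overlapped. On that scale the median of all miRNAs was 0.19 for knockout and 0.18 for transgene, each against control.

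miR-212-5p varied most among libraries of a group. It stood at 4.42, 8.63 and 2.10 CPM in knockouts, 6.31, 11.1 and 11.3 CPM in transgene libraries and 21.1, 16.3 and 5.30 CPM in controls. Control 3 was below every transgene library and below knockout 2, so neither DROSHA group was separate from controls. The log2 fold change was -1.49 (SE 0.62) for knockout and -0.57 (SE 0.61) for transgene, each against control. With 1 library left out, the knockout fold ran from -2.14 without knockout 2 to -1.02 without knockout 3, and the transgene fold from -1.0 without control 3 to -0.21 without control 1.

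**Figure D2:**
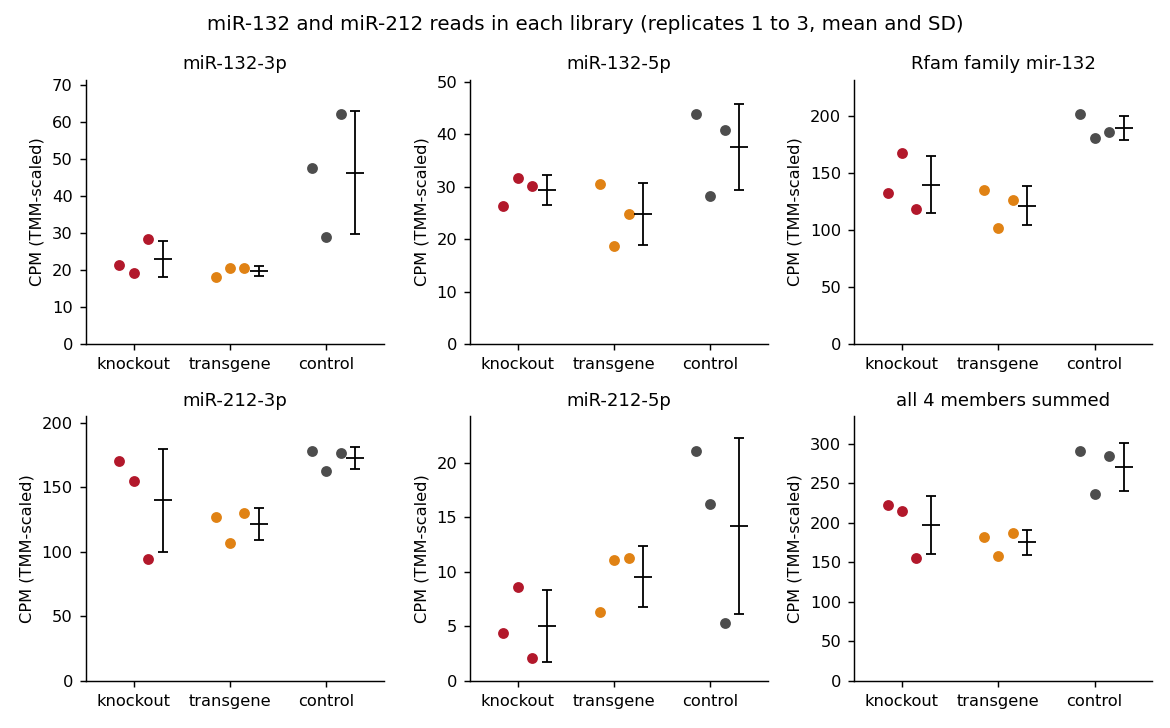
TMM-scaled CPM of the 4 miRNAs, of the deposited Rfam family mir-132 and of the 4 members summed, in 3 knockout, 3 transgene and 3 control libraries; points are replicates 1 to 3 from left to right, the bar is the mean and SD. The points for miR-132-3p lie at 18.1 to 28.3 CPM in the 6 DROSHA libraries and at 29.0 to 62.0 CPM in controls, while those for miR-212-5p overlap in all groups.

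Added together, the 2 strands with the AACAGUC seed gave 163 ± 35.8 CPM in knockouts, 141 ± 11.9 CPM in transgene libraries and 219 ± 24.1 CPM in controls (SD, n = 3 each). The transgene libraries, at 128 to 151 CPM, lay below the controls, at 192 to 239 CPM. The knockouts, at 123 to 192 CPM, reached the level of the lowest control. All 4 members together gave 198 ± 36.7 CPM in knockouts, 176 ± 15.6 CPM in transgene libraries and 271 ± 29.8 CPM in controls. miR-212-3p was the larger part of both sums. Comparable sums of other miRNAs were not counted, so nothing is read from the separation of a sum from controls.

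On the TMM scale, 1 of the 4 members lay below all controls in knockouts, where 15.6% of the 955 miRNAs did, and 2 of 4 in transgene libraries, where 12% did. As a share of known miRNA reads, with no TMM scaling, these counts were 0 of 4 in knockouts (8.27% of the 955) and 1 of 4 in transgene libraries (4.19%), the 1 being miR-132-3p. Since these counts were in view when the members were chosen, nothing is read from them. edgeR's quasi-likelihood test called 0 of 955 miRNAs (0%) in the knockout comparison with controls and 0 of 955 (0%) in the transgene comparison. At an unadjusted p under 0.05 there were 245 and 84, and DESeq2 called 104 and 4. The median log2 fold change of all 955 was -0.03 for knockout against control and -0.04 for transgene against control. TMM scaling centres the bulk of the miRNAs, so these medians were close to fixed in advance. A change shared by most miRNAs would not show in them. In the transgene comparison 12 miRNAs had a lower fold change than miR-132-3p, and in the knockout comparison 66 had.

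**Figure D3:**
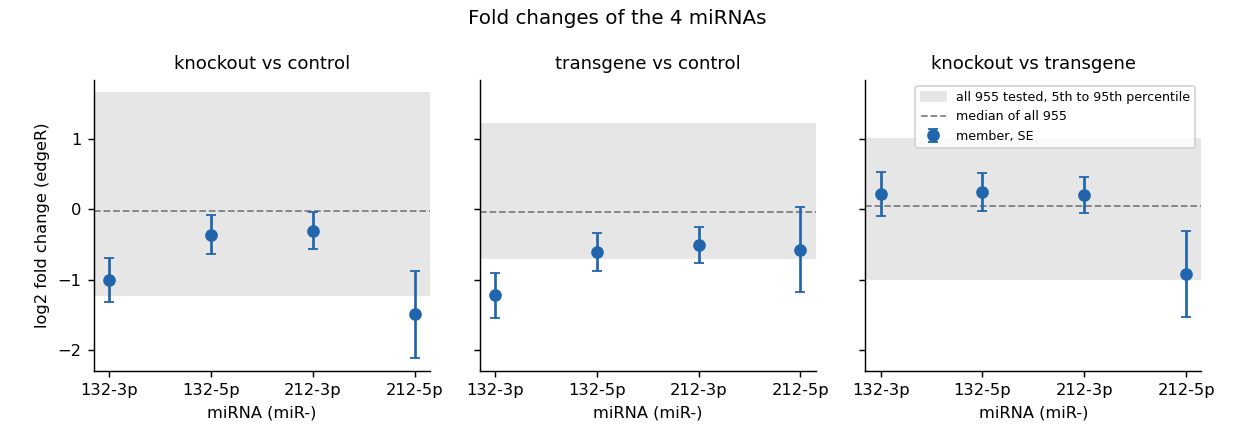
Log2 fold changes of the 4 miRNAs with SE (edgeR) in the 3 comparisons, over the 5th to 95th percentile (grey) and median (dashed) of all 955 tested miRNAs. Against controls all 8 points lie below 0, and miR-132-3p at -1.23 in the transgene comparison and miR-212-5p at -1.49 in the knockout comparison lie under the grey band.

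Between knockout and transgene kidneys, the log2 fold change of 3 of the 4 members was smaller than its SE. The log2 fold change of knockout against transgene was 0.22 (SE 0.31) for miR-132-3p, 0.25 (SE 0.27) for miR-132-5p and 0.21 (SE 0.26) for miR-212-3p, with SEs wide enough that moderate differences in either direction remain possible. It was -0.92 (SE 0.61) for miR-212-5p. On the TMM scale all 4 overlapped between the 2 groups, while 5.97% of the 955 miRNAs were separately lower and 4.4% separately higher in knockouts. As a share of known miRNA reads, miR-132-5p was separately higher in knockouts, at 29.3 to 32.1 per 1000000 reads against 21.2 to 28.0 in transgene libraries, as were 4.92% of the 955 miRNAs. The quasi-likelihood test called 1 miRNA in this comparison (0.105%), miR-3067-5p, named here because it was the only one. It is no member of the cluster.

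Ratios within a library need no scaling between libraries. miR-212-3p had 8.0, 8.04 and 3.35 times the reads of miR-132-3p in knockouts 1 to 3, 6.99, 5.21 and 6.33 times in transgene libraries 1 to 3 and 3.75, 5.61 and 2.85 times in controls 1 to 3 (1 read added to each count). The groups overlapped, since control 2 exceeded transgene 2 and knockout 3. On the log2 scale the ratio was 2.58 ± 0.73 in knockouts, 2.62 ± 0.22 in transgene libraries and 1.97 ± 0.49 in controls (SD, n = 3 each).

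The balance of the miR-132 strands also differed between libraries. The 3p strand made up 44.8%, 37.7% and 48.4% of miR-132 reads in knockouts 1 to 3, 37.2%, 52.3% and 45.2% in transgene libraries and 52.0%, 50.6% and 60.3% in controls. Every knockout was below every control, and transgene 2 was within the range of controls. How many other hairpins separate in this way was not counted, so it is not shown to be particular to miR-132. Knockout 3 (exact 95% interval 46.0% to 50.9%) and control 2 (47.9% to 53.3%) overlapped within counting error. These intervals treat each read as an independent count and leave out the spread between libraries. The reads carry no molecular identifiers, so amplified copies cannot be told apart and the intervals may be too narrow.

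miR-212 was dominated by its 3p strand throughout, at 97.5%, 94.7% and 97.8% in knockouts, 95.3%, 90.6% and 92.0% in transgene libraries and 89.4%, 90.9% and 97.1% in controls. The ratio of 3p to 5p reads ran from 8.44 in control 1 to 44.4 in knockout 3, and control 3, at 33.1, stood with the knockouts. The miR-132 hairpin by contrast gave ratios from 0.592 in transgene 1 to 1.52 in control 3, so the 2 hairpins of this transcript differed in strand balance in every library.

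**Figure D4:**
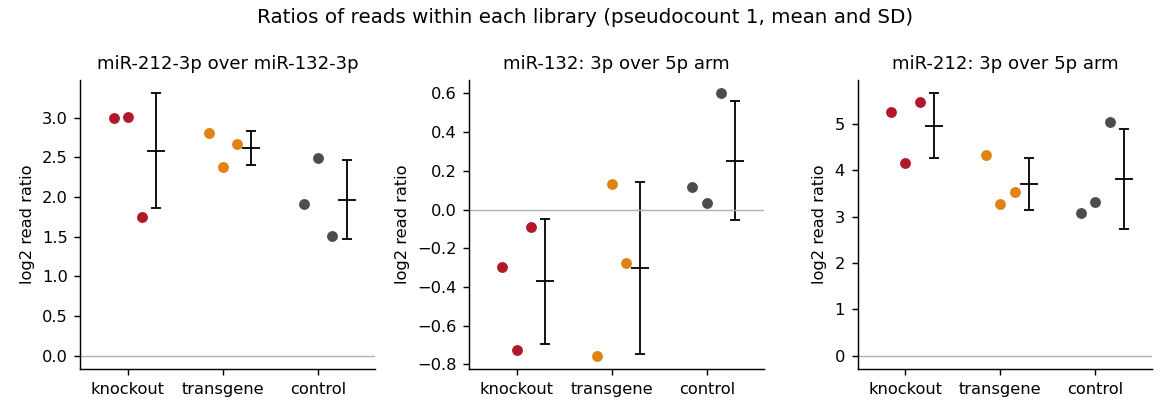
Log2 ratios of reads within each library (1 read added to each count), with the mean and SD per group: miR-212-3p over miR-132-3p, and the 3p over the 5p strand of each hairpin. The miR-132 strand ratio lies between -0.76 and 0.60, around equality, while that of miR-212 lies between 3.08 and 5.47.

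The deposited files hold a further row for the Rfam family mir-132, a covariance model of the precursor, whose reads are counted apart from the mature names. It held 3942, 4124 and 3284 reads in knockouts 1 to 3, 3727, 3323 and 3688 in transgene libraries and 6425, 4346 and 5059 in controls, which is 0.779 to 1.25 times the miR-212-3p count of the same library. On the TMM scale it stood at 140.0 ± 25.2 CPM in knockouts, 121 ± 17.0 CPM in transgene libraries and 189.7 ± 10.8 CPM in controls (SD, n = 3 each), with all 6 DROSHA libraries below all controls. As a share of all counted reads, the knockouts (94.3 to 129.9 RPM) overlapped with controls (129.3 to 150.8 RPM), and the transgene libraries (89.0 to 112.9 RPM) did not. How many other family rows separate on either scale was not counted, so nothing is read from these separations. The files do not say which hairpin or strand the reads of the mir-132 row came from, so the mature counts may leave out part of the cluster's reads. Rows named novel_mir132 and novel_mir212 are predicted loci on other chromosomes and were not counted.

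The members did not follow each other closely from library to library. Over the 9 libraries, Pearson's r of log2 CPM was 0.74 between the 2 miR-132 strands, 0.58 between miR-132-5p and miR-212-3p, 0.47 between the 3p strands and 0.44 between the miR-212 strands. For miR-212-5p it was 0.09 with miR-132-3p and 0.04 with miR-132-5p. These are descriptions over libraries that also share group and scaling.

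Among 462 other miRNAs with a mean of at least 10 CPM, the 5 whose log2 CPM was most like that of miR-132-3p over the 9 libraries were miR-23b-3p (Pearson's r 0.90), miR-181c-5p (0.84), miR-146b-5p (0.83), miR-125a-5p (0.83) and miR-191-5p (0.79). miR-23b-3p stood at 3143, 3279 and 3564 CPM in knockouts, 3843, 3595 and 3846 CPM in transgene libraries and 5916, 5074 and 6579 CPM in controls, and control 2 was its lowest control. It was chosen for its likeness to miR-132-3p over these libraries, so its separation from controls is no independent result. Its log2 fold change was -0.82 (SE 0.16) for knockout and -0.64 (SE 0.16) for transgene, each against control. miR-146b-5p, which targets inflammatory signalling, was at 63.5, 66.0 and 64.5 CPM in knockouts, 49.3, 48.6 and 41.9 CPM in transgene libraries and 93.5, 95.2 and 106 CPM in controls. miR-181c-5p, miR-125a-5p and miR-191-5p had smaller folds, from -0.29 (SE 0.17) for miR-191-5p in knockouts to -0.58 (SE 0.19) for miR-125a-5p in transgene libraries.

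**Figure D5:**
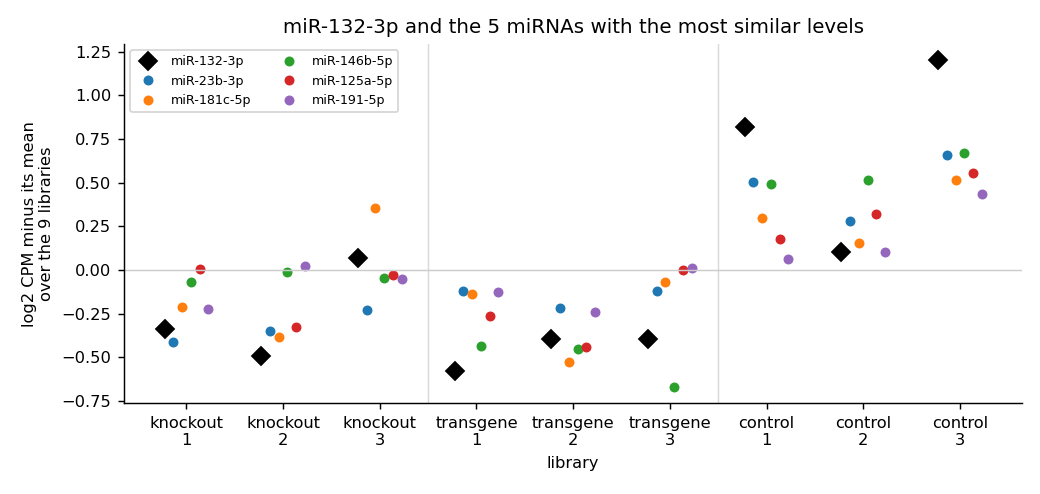
Log2 CPM minus its mean over the 9 libraries for miR-132-3p (diamonds) and the 5 miRNAs of highest Pearson's r with it (dots), by library. miR-132-3p has the widest range, from 18.1 CPM in transgene 1 to 62.0 CPM in control 3, and the dots of all 5 lie above 0 in the 3 controls.

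Other miRNAs linked to blood vessel growth were counted because miR-132-3p acts in endothelium. Of 18 listed, all tested, 12 had negative log2 fold changes in knockouts against controls, where 51.1% of all 955 did, and 14 in transgene libraries against controls, where 53.3% did. The medians were -0.23 and -0.29, beside -0.03 and -0.04 for all miRNAs, and the knockout median was -0.12 without knockout 3. edgeR called 0 of the 18 in either comparison. At an unadjusted p under 0.05 there were 1 higher and 5 lower in knockouts, where 15.6% of all 955 were higher and 10.1% lower. There were 0 higher and 3 lower in transgene libraries, where 5.24% were higher and 3.56% lower. DESeq2 called 4 of the list in knockouts (10.9% of the 955) and 0 in transgene libraries (0.419%). miR-126a-3p, the endothelial marker, was at 41690 ± 8083 CPM in knockouts, 39940 ± 4704 CPM in transgene libraries and 47850 ± 5860 CPM in controls (SD, n = 3 each), and miR-92a-3p, which restrains sprouting, was at 13740 ± 2748 CPM in knockouts, 19740 ± 614 CPM in transgene libraries and 27040 ± 5723 CPM in controls. With scaling to total miRNA counts the medians of the list were -0.02 and -0.06, beside 0.19 and 0.18 for all miRNAs on that scale.

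Neural and activity-linked miRNAs were counted because the cluster is best known from neurons. Of 14 tested, 11 had positive log2 fold changes in knockouts (median 0.66) and 8 in transgene libraries (median 0.09), each against controls, beside 48.9% and 46.6% of all 955, and edgeR called 0 in either. The knockout direction rested on knockout 3: without it 5 of 14 were positive and the median was -0.21. The transgene median ran from -0.07 without control 3 to 0.33 without control 1. At an unadjusted p under 0.05 there were 2 higher and 0 lower in knockouts and 0 in transgene libraries, and DESeq2 called 1 and 0, so the knockout counts were near the shares of all 955 given for the vessel list. With the replicate number as a block, 0 were higher and 1 lower in knockouts. Their summed level was 11330 to 31790 CPM in knockouts, 18320 to 23980 CPM in transgene libraries and 13890 to 24380 CPM in controls. The most abundant was miR-218-5p, which was also on the vessel list, so the lists are not fully separate. It was at 10280 ± 3202 CPM in knockouts, 13230 ± 1187 CPM in transgene libraries and 14190 ± 4752 CPM in controls (SD, n = 3 each). miR-7a-5p followed, at 6017 ± 6015 CPM in knockouts, 4016 ± 1403 CPM in transgene libraries and 1482 ± 511 CPM in controls.

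Levels of miRNAs that mark cells of a whole kidney are given beside those of the cluster. Tubule epithelium markers, which include miR-429-3p and miR-200a-3p, summed to 14850 to 33200 CPM in knockouts, 25710 to 37050 CPM in transgene libraries and 39610 to 44550 CPM in controls, and 8 of 9 had negative log2 fold changes in each DROSHA group, beside 51.1% and 53.3% of all 955 in knockouts and transgene libraries. edgeR called 0 of the 9 in either comparison. At an unadjusted p under 0.05, 3 were lower in knockouts and 2 in transgene libraries, beside 10.1% and 3.56% of all 955. DESeq2 called 1 and 0 of the 9, beside 10.9% and 0.419% of all 955. The median log2 fold change of the 9 was -0.75 in knockouts, or -0.33 without knockout 3, and -0.50 in transgene libraries, or -0.31 without transgene 3. All 9 tubule markers passed the filter on low counts, which does not by itself identify the tissue. Knockout 3, the lowest library for miR-212-3p and miR-212-5p, was also the lowest for these markers and the highest for muscle markers, at 10510 CPM against 2073 and 458 CPM in knockouts 1 and 2. The miR-132 strands did not share this: miR-132-3p in knockout 3, at 28.3 CPM, was the highest of all DROSHA libraries. Its miR-132-5p, at 30.2 CPM, lay between knockouts 1 and 2. Muscle markers summed to 468 to 1641 CPM in transgene libraries and 221 to 1254 CPM in controls, with all 6 tested members positive in both DROSHA groups, beside 48.9% and 46.6% of all 955. In knockouts edgeR called 0 of the 6. At an unadjusted p under 0.05, 4 were higher, beside 15.6% of all 955, and DESeq2 called 4, beside 10.9%. Without knockout 3 there were 5 positive and 0 at that p, with a median log2 fold change of 1.11 against 2.92 with it. With DESeq2 or total miRNA counts, 6 were higher at that p in knockouts. In transgene libraries the counts by edgeR, at that p and by DESeq2 were all 0. There 4 of 6 were positive without transgene 1. miR-208a-3p, a heart marker, had at most 7 reads in any library. Erythroid markers summed to 71950 to 113800 CPM in knockouts, 27430 to 80520 CPM in transgene libraries and 21510 to 52830 CPM in controls. Of these, 7 of 7 were positive in both DROSHA groups, beside 48.9% and 46.6% of all 955. The 7 include several strands of miR-144 and of miR-486, so they are not 7 separate observations. edgeR and DESeq2 called 0 of the 7. At an unadjusted p under 0.05, 2 were higher in knockouts and 0 in transgene libraries, beside 15.6% and 5.24% of all 955. Without knockout 3 there were 0 in knockouts, and with DESeq2, no filter or total miRNA counts there were 5. In transgene libraries 5 of 7 were positive without control 3. Leukocyte markers overlapped in all groups, at 1074 to 1879 CPM in knockouts, 1014 to 1749 CPM in transgene libraries and 986 to 1469 CPM in controls. So did stroma and smooth muscle markers, at 40910 to 63930 CPM in knockouts, 41960 to 62060 CPM in transgene libraries and 38850 to 48600 CPM in controls. Of the 6, 5 had positive log2 fold changes in knockouts (median 0.46) and 3 in transgene libraries (median 0.0019), beside 48.9% and 46.6% of all 955. miR-143-3p, the most abundant, was at 28810 ± 3186 CPM in knockouts, 25960 ± 5287 CPM in transgene libraries and 32690 ± 3546 CPM in controls. miR-199a-3p followed, at 13100 ± 12460, 16490 ± 11600 and 3245 ± 1458 CPM (SD, n = 3 each). Of the 7 leukocyte markers, 4 were positive in knockouts and 3 in transgene libraries. Of 7 leukocyte and 6 stroma markers, edgeR called 0 in either comparison. DESeq2 called 1 of each in knockouts, beside 10.9% of all 955, and 0 in transgene libraries, beside 0.419%. At an unadjusted p under 0.05, 2 stroma markers were higher in knockouts and 1 in transgene libraries, beside 15.6% and 5.24%. Without control 1 both counts were 0. Of the leukocyte markers, 1 was higher at that p in each comparison. The part of any of these cell types in the levels of miR-132 and miR-212 was not tested.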

How the data were processed

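The deposited counts are whole reads per small RNA name and, per the file headers, add up to the stated total of each library. The deposited TPM column equals the count divided by that total, times 1000000, to within 0.005, and was not tested. Per the labels' protocols, RNA was extracted with Trizol and libraries followed BGI protocols. Tools named in the submitters' processing notes are CASAVA 1.8 and Bowtie2, with the build mm10, whose primary assembly is GRCm38. For reads that match several names, the sources used here give no rule.

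Known miRNAs (mature and hairpin rows of 1 name added) were fitted with edgeR 4.0.16 in R 4.3.3 over all 9 libraries: filterByExpr, TMM, quasi-likelihood F test, Benjamini-Hochberg threshold 0.05. The common biological coefficient of variation was 0.489. DESeq2 1.42.0 was an alternative. Members, lists and tests were chosen with earlier results of these data known. Named outside the cluster are the 5 miRNAs most like miR-132-3p (mean of at least 10 CPM) and, of each list described, up to 2 of its most abundant members; others are said to be chosen after their values were seen. Alternatives were other scalings, no filter, mature rows only, 2 groups per fit, the replicate number as a block and each library left out.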

Additional observations from a re-analysis of the deposited data

How the results depend on the processing

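Of the 12 log2 fold changes of the members, 11 kept their sign in all 16 alternatives, and that of miR-212-3p in knockouts changed it only without knockout 3. Over the libraries left out one at a time, miR-132-3p ran from -1.29 to -0.76 for knockout and from -1.52 to -0.98 for transgene, each against control. Of 192 values, 190 moved by less than the SD between libraries, a limit that leaving out 1 of 3 libraries can rarely exceed. The others were the transgene fold of miR-212-3p, at -0.29 with total miRNA counts and from -0.59 to -0.35 with 1 library left out. With total miRNA counts the median over all 955 was 0.19 for knockout and 0.18 for transgene. All 45 recomputed means of read ratios stayed within that SD. Leaving out 1 of 3 libraries cannot move a mean that far, so for those means the outcome was fixed in advance. The other recomputed means changed only the pseudocount.

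DESeq2 called 104 miRNAs in knockouts against controls, 12 of them in the lists described, 4 in transgene libraries against controls (miR-146b-5p, miR-375-3p, miR-667-5p and miR-7b-5p) and 3 between knockout and transgene (miR-205-5p, miR-3067-5p and miR-467h), where edgeR called 0, 0 and 1. With 1 library left out, edgeR's count for knockout against control ran from 0 to 48, the 48 being without knockout 1, and that in the lists from 0 to 1 (miR-7a-5p). For knockout against transgene it ran from 0 to 1, and was 0 with only the 2 groups compared in the fit. The miRNAs named in this paragraph beyond the lists were chosen after their values were seen.

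The titles number the libraries 1 to 3 in each group, and nothing says that a number marks a shared litter or day. The correlation of same-numbered deviations from the group means ran from -0.302 to 0.102. Such values cannot tell whether same-numbered libraries shared a litter or day. With the replicate number as a block, edgeR called 0 miRNAs in all 3 comparisons, against 1 without it for knockout against transgene. The miR-212-5p values rest on 58 to 672 reads, the thinnest of the cluster.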
